A study of Mus musculus with 6 samples.

Results

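The 46 genes described here encode the machinery that copies nuclear DNA, from the marking of replication origins to the sealing of the new strands and the copying of their methylation. They were taken by name from the deposited expression table, which held all 46 among its 17558 genes, and all 46 passed the filter on low counts that left 12643 genes for testing. RNA came from C2C12, a mouse myoblast line without limit to its growth whose cells leave the cell cycle and fuse into myotubes when serum is lowered. The 6 libraries fall into 3 groups of 2. Control cells, labelled wild type, had a short hairpin RNA of scrambled sequence (shScr). The second group had a hairpin against Pkm1, a splice isoform of Pkm, the gene of muscle pyruvate kinase (shPkm1), and the third is labelled as having one against the isoform Pkm2 (shPkm2). All hairpins were stable, and all cells had spent 48 h in medium with horse serum, insulin, transferrin and selenium. The labels do not say whether a line was a pool or 1 clone, how many hairpins were used per isoform, or whether the 2 libraries of a group came from separate cultures, so p-values measure the spread between these libraries, which may be technical. The comparisons ask how a hairpin against either isoform goes with the state of differentiating myoblasts.

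Before S phase the origin recognition complex (ORC), Cdc6 and Cdt1 load the MCM2-7 ring onto DNA, a step called licensing, and geminin (Gmnn) binds Cdt1 to stop it from happening again. The kinase Cdc7-Dbf4 then helps to turn each ring, with Cdc45 and GINS, into the working helicase. Primase and DNA polymerase alpha start each strand, the clamp loader RFC places the sliding clamp PCNA, polymerases delta and epsilon extend, and RPA, Fen1 and Lig1 protect, trim and join the DNA. Transcripts of many of these genes rise as a cell enters S phase, when E2F factors act on their promoters, and fall in cells that leave the cycle, as myoblasts do when they form myotubes.

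RefSeq promoter windows (GRCm38.p6, 250 bases before to 50 after a start site) were at hand for 38 of the 46 genes. Each was searched on both strands, overlapping matches allowed, for the 8-letter E2F-type words TTTCCCGC, TTTCGCGC, TTTGCCGC and TTTGGCGC. The stretches below are shown because they hold such words, in capitals, in genes that span the range of change described further on. All are written 5′ to 3′ on the strand of the gene, so a word on the other strand reads as its reverse complement. The first 4 genes rose in the shPkm2-labelled libraries, by 2.49 to 0.98 on the log2 scale, and Orc3 did not pass the test there.
Cdc6, chr11:98907983-98908050, + strand: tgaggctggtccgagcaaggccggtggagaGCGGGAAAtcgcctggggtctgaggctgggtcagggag
Pola1, chrX:93632256-93632323, - strand: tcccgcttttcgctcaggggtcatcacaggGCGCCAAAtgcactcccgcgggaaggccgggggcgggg
Mcm5, chr8:75109326-75109397, + strand: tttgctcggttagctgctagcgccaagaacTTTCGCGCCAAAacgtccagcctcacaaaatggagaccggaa
Mcm6, chr1:128359715-128359845, - strand: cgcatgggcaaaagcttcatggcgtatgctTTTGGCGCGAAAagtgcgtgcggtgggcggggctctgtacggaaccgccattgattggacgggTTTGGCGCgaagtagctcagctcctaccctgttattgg
Orc3, chr4:34614965-34614994, - strand: ccatgcctcccTTTCCCGCacgccccgcct
The Mcm5 and Mcm6 stretches each hold 2 words that overlap on opposite strands and so form 1 palindrome-like run, and Mcm6 holds another word nearer to its start.

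Libraries held between 18216896 and 19796036 estimated counts. The targeted isoforms were read first. The Pkm1 isoform stood at 546 and 589 TPM (the deposited abundance, corrected for transcript length) in the control libraries, 243 and 218 TPM in the shPkm1 libraries, and 254.1 and 254.2 TPM in the shPkm2-labelled libraries. The Pkm2 isoform stood at 1073 and 1517 TPM in the control, 1278 and 1379 TPM in shPkm1, and 2700 and 2630 TPM in the shPkm2-labelled libraries, so this label is not borne out by a lower target and the group is named by its label throughout. Control libraries differed more from each other than the others did: their log2 values correlated at r = 0.988 across genes, against 0.994 within each of the other groups. Genes of mature muscle moved with the groups. The summed TPM of 12 myotube markers was 46382 and 34267 in the control, 14697 and 15945 in shPkm1, and 323 and 334 in the shPkm2-labelled libraries, and all 12 markers were called lower in each of the 3 comparisons. The summed TPM of 7 myoblast markers was 3303 and 3590, 2923 and 3091, and 1323 and 1230 in the same order, with 1 called higher and 4 lower in shPkm1, and 2 higher and 5 lower in the shPkm2-labelled libraries. Of 9 fat, bone and cartilage markers, 6 had under 10 counts in every library, among them the defining Adipoq, Sp7 and Acan, and the summed level of the 9 was 19.7 and 24.8 TPM in the control, 37.5 and 34.2 TPM in shPkm1, and 56.5 and 49.9 TPM in the shPkm2-labelled libraries. The other 3 went both ways, with 2 called higher and 1 lower in shPkm1, 2 higher and 0 lower in the shPkm2-labelled libraries, and 1 higher and 1 lower between the hairpin groups. In bulk RNA, fewer cells of a type and less RNA per cell cannot be told apart, and the part of the myotube share in the results that follow was not tested.

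Transcripts of the replication machinery were lowest in the control libraries, higher in shPkm1 and highest in the shPkm2-labelled libraries. Their summed level was 0.0683% and 0.0825% of all TPM in the control libraries, 0.130% and 0.125% in shPkm1, and 0.285% and 0.274% in the shPkm2-labelled libraries. In shPkm1 27 of the 46 genes were called higher than in the control and none lower by edgeR's quasi-likelihood test (Benjamini-Hochberg adjusted p under 0.05), where 31.8% of all tested genes were called higher and 31.4% lower (63.1% in either direction). Another 19 genes were not called. The median change of the 46 was 0.51 on the log2 scale, beside -0.00015 over all tested genes, and 6 genes were called and at least 2-fold higher (12.6% of all tested genes). In the shPkm2-labelled libraries 44 genes were called higher than in the control and none lower, against 33.9% and 34.2% of all tested genes (68% in either direction). The median change was 1.66, or 3.16-fold, and 36 of the 46 were at least 2-fold higher (14.1% of all tested genes). Between the hairpin groups 42 genes were called higher in the shPkm2-labelled libraries than in shPkm1 and none lower, against 25.7% and 27.3% of all tested genes (53% in either direction). The median was 1.16, and 27 genes were at least 2-fold higher (7.07% of all tested genes). Counting values alone, both libraries lay above both controls for 33 genes in shPkm1 and for 45 in the shPkm2-labelled libraries (40.7% and 42.2% of all tested genes), and 42 genes lay higher in both shPkm2-labelled libraries than in both of shPkm1 (40.2%). In shPkm1 2 genes, Cdt1 and Rpa2, had both libraries below both controls (40.3% of all tested genes), and 0 genes lay so in the comparisons of the shPkm2-labelled libraries with the control and with shPkm1 (41.7% and 39.6%).

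**Figure D1:**
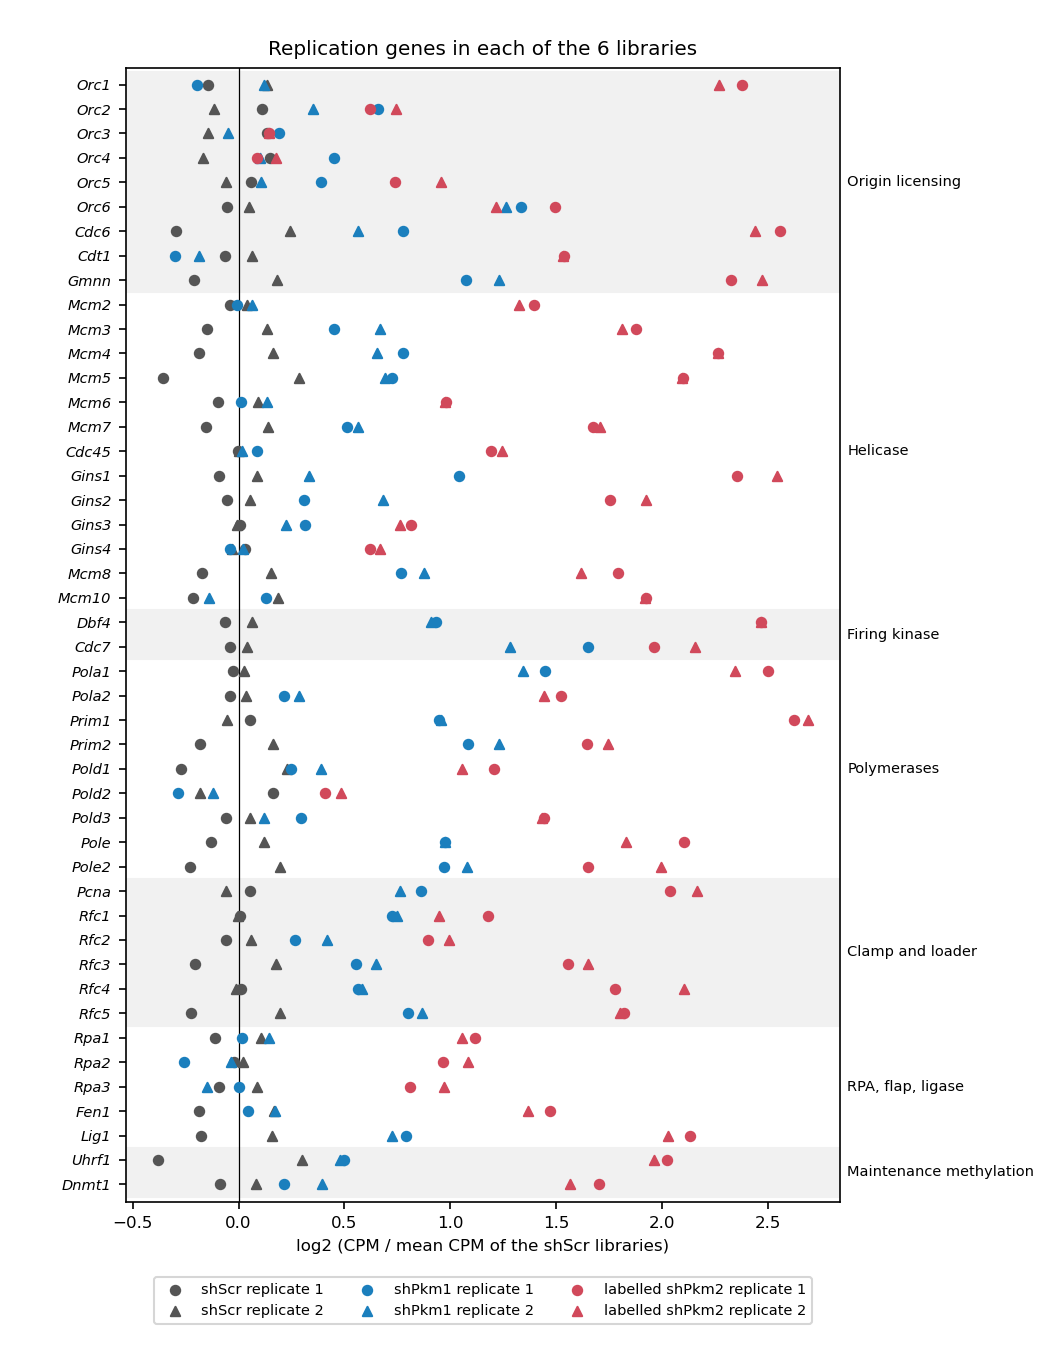
Counts scaled to library size (CPM) of each of the 46 genes in each library, divided by the mean of the control libraries and on a log2 axis, with genes ordered by role; circles are replicate 1 and triangles replicate 2 (grey control, blue shPkm1, red labelled shPkm2). The red points lie to the right of the grey ones for 45 genes, while the blue points lie right of the grey ones for 33.

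Calls fell into 4 patterns, which were counted for the 46 genes alone and not over all tested genes. A set of 25 genes rose in all 3 comparisons, and 17 were called in both comparisons of the shPkm2-labelled libraries and not in shPkm1. Orc2 and Orc6 rose in both hairpin groups with no call between them, and Orc3 and Orc4 were called in no comparison with TMM scaling and all libraries. The control libraries themselves differed. In control replicate 2, 35 of the 46 genes were higher than in replicate 1 (47.6% of all tested genes), with a median gap of 0.15 on the log2 scale. The median gap was -0.015 over all tested genes and -0.64 for the myotube markers. The level of the calls in shPkm1 moved with the scaling. Scaling by library totals alone shifted the median of all tested genes by 0.19 in shPkm1 and 0.33 in the shPkm2-labelled libraries. With it 33 of the 46 genes were called higher in shPkm1, and limma on log2(TPM + 1), with a shift of 0.31, called 40. Of all 12643 tested genes, 4018 were called higher in shPkm1 with TMM scaling, 5116 with library totals and 6189 with limma. Of all calls in shPkm1, 50.3% were upward with TMM scaling, 65.8% with library totals and 78.1% with limma on TPM. The sign of small changes moved with it: 7 genes had an uncalled change below 0 in shPkm1 with TMM scaling (Orc1, Cdt1, Gins4, Mcm10, Pold2, Rpa2 and Rpa3), and all 7 were above 0 with limma on log2(TPM + 1).

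**Figure D2:**
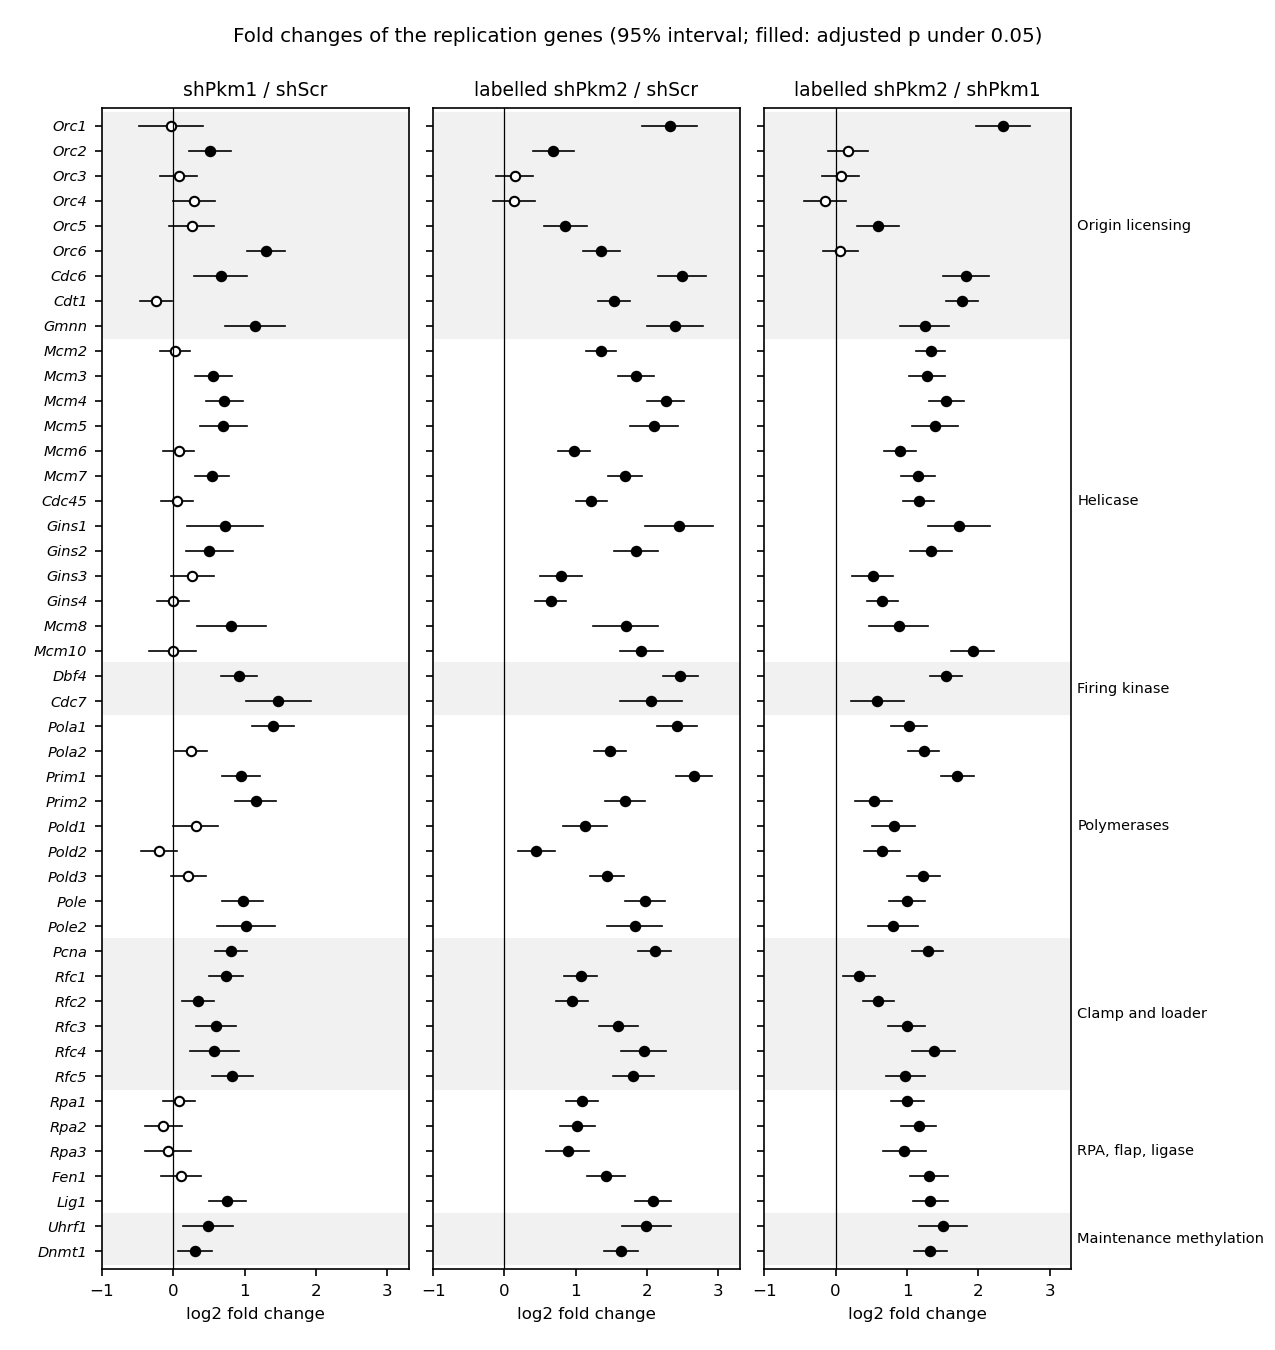
Log2 fold changes of the 46 genes with their 95% intervals, for shPkm1 against shScr (left), the shPkm2-labelled libraries against shScr (middle) and the shPkm2-labelled libraries against shPkm1 (right); filled points passed an adjusted p of 0.05. No filled point lies below 0, and the open points number 19, 2 and 4 from left to right.

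Of the 9 licensing genes, 4 were called higher in shPkm1, 7 in the shPkm2-labelled libraries, and 5 between the hairpin groups. Over all tested genes, 31.8%, 33.9% and 25.7% were called higher in the same comparisons. Cdc6, the ATPase that joins ORC to load the MCM ring, stood at 5.83 and 8.47 CPM in the control libraries, 12.2 and 10.6 CPM in shPkm1 and 42.2 and 38.8 CPM in the shPkm2-labelled libraries. No library of one group overlapped those of another. It rose by 2.49 ± 0.16 (log2, SE) in the shPkm2-labelled libraries (adjusted p 1.4e-08) and by 0.66 ± 0.17 in shPkm1 (adjusted p 0.0041). Geminin, the inhibitor of Cdt1, was at 2.54 and 3.33 CPM in the control, 6.18 and 6.88 CPM in shPkm1 and 14.7 and 16.3 CPM in the shPkm2-labelled libraries, again without overlap between groups. Its change was 1.14 ± 0.19 in shPkm1 (adjusted p 2.1e-04) and 2.39 ± 0.18 in the shPkm2-labelled libraries (adjusted p 8.3e-08). Cdt1, the loading factor that geminin holds back, took another course: 27.3 and 29.9 CPM in the control, 23.3 and 25.1 CPM in shPkm1 and 83.0 and 82.8 CPM in the shPkm2-labelled libraries. In CPM both shPkm1 libraries lay below both controls, but the change of -0.24 ± 0.11 did not pass the test (adjusted p 0.063), except without control replicate 1, when it was -0.30 with an adjusted p of 0.028, and it was 0.14 (uncalled) in limma on log2(TPM + 1). In the shPkm2-labelled libraries Cdt1 rose by 1.53 ± 0.10 over the control (adjusted p 2.4e-08). Per transcript, the ratio of geminin to Cdt1 TPM was 0.218 and 0.263 in the control, 0.621 and 0.644 in shPkm1, and 0.417 and 0.460 in the shPkm2-labelled libraries, so the ratio was highest in shPkm1 and the 3 groups did not overlap. It is given as a description, with no test.

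The 6 ORC subunits did not move as a block. Orc1, the largest ATPase subunit, whose level is known to follow the cell cycle, was at 2.98 and 3.62 CPM in the control libraries, 2.88 and 3.59 CPM in shPkm1 and 17.1 and 15.9 CPM in the shPkm2-labelled libraries. The control and shPkm1 libraries overlapped (change -0.03 ± 0.21, adjusted p 0.91), while the shPkm2-labelled libraries stood 4.98-fold above the control (adjusted p 1.0e-07) and 5.09-fold above shPkm1 (adjusted p 1.3e-07). Orc6, the smallest subunit, was at 15 and 16.2 CPM in the control, 39.3 and 37.4 CPM in shPkm1 and 43.9 and 36.2 CPM in the shPkm2-labelled libraries. It rose by 1.3 ± 0.12 in shPkm1 and by 1.36 ± 0.12 in the shPkm2-labelled libraries, and the hairpin groups overlapped (95% interval of their difference -0.18 to 0.31). Orc3, a core subunit without ATPase activity, was at 46.7 and 38.5 CPM in the control, 48.6 and 41.1 CPM in shPkm1 and 47.0 and 47.0 CPM in the shPkm2-labelled libraries. Orc4, an ATPase-fold subunit, was at 31.8 and 25.5 CPM, 39.1 and 30.7 CPM and 30.4 and 32.3 CPM in the same order. For Orc3 the control libraries overlapped those of shPkm1 and lay just below those labelled shPkm2, and for Orc4 they overlapped both hairpin groups. The changes in the shPkm2-labelled libraries were 0.14 (95% interval -0.11 to 0.40) and 0.14 (-0.16 to 0.43), with adjusted p of 0.3 and 0.4, though both passed with library totals (0.47 and 0.46), with limma on log2(TPM + 1) (0.55 and 0.40) and without control replicate 1 (0.29 and 0.30). Orc4 also changed sign between the comparisons, at 0.29 in shPkm1 (adjusted p 0.083) and -0.15 between the hairpin groups, neither past the test with TMM scaling and all libraries; in shPkm1 it passed at 0.45 without control replicate 1, at 0.46 without shPkm1 replicate 2, at 0.49 with library totals and at 0.61 in limma on log2(TPM + 1). Of the others, Orc2 rose by 0.51 in shPkm1 (0.37 with an adjusted p of 0.069 without shPkm1 replicate 1) and by 0.69 in the shPkm2-labelled libraries, and Orc5 rose in the latter by 0.85. On the TPM scale, which corrects for length, Orc1 was the lowest of the 6 in every library. The highest was Orc3 in the control and Orc6 elsewhere. The ratio of highest to lowest was 20.2 and 13.8 in the control, 26.7 and 20.2 in shPkm1, and 4.88 and 4.35 in the shPkm2-labelled libraries, where the subunit levels lay closest together. Bodies of Orc2, Orc4 and Orc6 overlap in part with genes on the other strand. No strandedness of the counting is given in the sources used here, so reads from the shared stretches cannot be told apart.

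**Figure D3:**
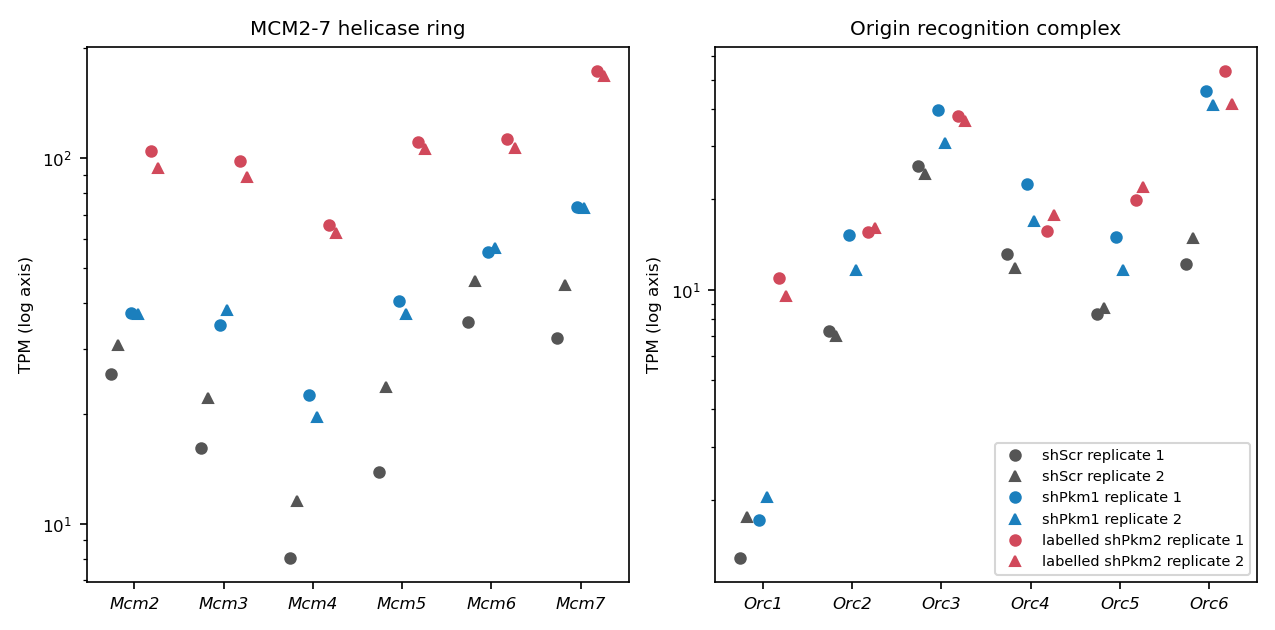
TPM of the 6 MCM ring genes (left) and the 6 ORC genes (right) in every library, on log axes; circles are replicate 1 and triangles replicate 2 (grey control, blue shPkm1, red labelled shPkm2). Mcm4 is the lowest ring gene in all 6 libraries, and Orc1 the lowest ORC gene, with 1.28 and 1.76 TPM in the control and 10.9 and 9.56 TPM in the shPkm2-labelled libraries.

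All 13 helicase genes were called higher in the shPkm2-labelled libraries than in the control (33.9% of all tested genes) and than in shPkm1 (25.7%). In shPkm1, 7 of 13 were called higher than in the control (31.8% of all tested genes). The summed TPM of the 6 ring genes was 132 and 179 in the control, 264 and 262 in shPkm1, and 664 and 625 in the shPkm2-labelled libraries. Mcm4, a ring subunit, was at 22.1 and 28.1 CPM in the control, 42.9 and 39.5 CPM in shPkm1 and 121 and 120.5 CPM in the shPkm2-labelled libraries. It had the largest change of the ring genes in the shPkm2-labelled libraries, 2.26 ± 0.12 (adjusted p 2.5e-09), and rose by 0.71 ± 0.12 in shPkm1 (adjusted p 2.0e-04). Mcm3, Mcm5 and Mcm7 also rose in shPkm1, by 0.56, 0.70 and 0.54. The other ring genes did not pass the test there: Mcm2 was at 66.2 and 70.1 CPM in the control and 67.7 and 71.2 CPM in shPkm1, with a change of 0.03 (95% interval -0.18 to 0.24). Mcm6 was at 81.1 and 92.6 CPM and 87.6 and 95.3 CPM, with a change of 0.07 (-0.15 to 0.30). Limma on log2(TPM + 1) called both, at 0.41 and 0.46. In the shPkm2-labelled libraries the 6 ring genes rose by 0.98 (Mcm6) to 2.26 (Mcm4). The ratio of the highest to the lowest ring gene in TPM was 4.43 and 3.97 in the control, 3.27 and 3.73 in shPkm1, and 2.62 and 2.68 in the shPkm2-labelled libraries. The highest was Mcm6 in the control libraries and Mcm7 in the others. Part of Mcm7 overlaps Cops6 and Ap4m1 on the other strand.

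Of the 4 GINS subunits, which join Cdc45 and the ring in the active helicase, Gins1 and Gins2 rose in shPkm1 and Gins3 and Gins4 were not called. Gins1 was at 2.60 and 2.94 CPM in the control, 5.70 and 3.49 CPM in shPkm1 and 14.2 and 16.1 CPM in the shPkm2-labelled libraries. The 2 shPkm1 libraries differed by more than most, and its change there, 0.72 ± 0.25 (adjusted p 0.022), was 0.34 with an adjusted p of 0.27 without shPkm1 replicate 1. Gins2 rose by 0.51 in shPkm1, and by 0.31 with an adjusted p of 0.13 without shPkm1 replicate 2. Gins4 was at 26.6 and 25.4 CPM in the control, 25.3 and 26.4 CPM in shPkm1 and 39.9 and 41.4 CPM in the shPkm2-labelled libraries. Its change in shPkm1 was -0.01 ± 0.10, with overlapping libraries, and turned to 0.37 (adjusted p 0.011) in limma on log2(TPM + 1), and in the shPkm2-labelled libraries it rose by 0.65 ± 0.10 (adjusted p 8.5e-05). Gins3 was at 8.24 and 8.14 CPM, 10.2 and 9.56 CPM and 14.4 and 13.9 CPM in the same order. Its groups did not overlap. The shPkm2-labelled libraries rose by 0.79 ± 0.14 over the control (adjusted p 1.9e-04) and by 0.52 over shPkm1, the latter 0.49 with an adjusted p of 0.054 without replicate 1 of the shPkm2-labelled libraries. In shPkm1 Gins3 passed with library totals (0.46) and with limma on log2(TPM + 1) (0.56), though not with TMM scaling. Cdc45 changed by 0.05 in shPkm1, short of the threshold with TMM scaling but called at 0.36 in limma on log2(TPM + 1), and rose by 1.22 in the shPkm2-labelled libraries. Mcm10, which helps to start the helicase, was at 9.44 and 12.5 CPM in the control, 12 and 9.96 CPM in shPkm1 and 41.7 and 41.6 CPM in the shPkm2-labelled libraries. The control and shPkm1 libraries overlapped, at a change of -0.01 ± 0.15, and the rise between the hairpin groups was 1.92 ± 0.14 (adjusted p 9.6e-08). Mcm8, a relative of the ring genes known from repair by recombination, had the lowest counts of the 46, down to 32 in a library, and rose by 0.82 ± 0.23 in shPkm1 and by 1.70 ± 0.21 in the shPkm2-labelled libraries. Some Cdc45 and Gins2 reads may belong to genes that overlap them on the other strand.

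Both subunits of the origin-firing kinase rose in every comparison. Cdc7, the catalytic subunit, was at 2.41 and 2.54 CPM in the control, 7.77 and 6.02 CPM in shPkm1 and 9.65 and 11 CPM in the shPkm2-labelled libraries. Its change of 1.47 ± 0.21 in shPkm1 (adjusted p 4.9e-05) was the largest of the 46 in that comparison. Between the hairpin groups it rose by 0.59 ± 0.17 (adjusted p 0.012), a call that DESeq2 did not make (adjusted p 0.052), nor edgeR without shPkm1 replicate 2 (0.41) or without replicate 2 of the shPkm2-labelled libraries (0.48). Dbf4, the regulatory subunit that activates Cdc7, was at 9.89 and 10.8 CPM in the control, 19.8 and 19.4 CPM in shPkm1 and 57.3 and 57.3 CPM in the shPkm2-labelled libraries. It rose by 0.92 ± 0.12 in shPkm1 and by 2.47 ± 0.11 in the shPkm2-labelled libraries (adjusted p 5.5e-10). In TPM, the ratio of Dbf4 to Cdc7 was 4.95 and 5.15 in the control, 3.24 and 3.95 in shPkm1, and 7.18 and 6.41 in the shPkm2-labelled libraries, so that shPkm1 had the lowest ratio and the shPkm2-labelled libraries the highest.

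The 9 polymerase genes were all called higher in the shPkm2-labelled libraries than in the control (33.9% of all tested genes) and than in shPkm1 (25.7%). In shPkm1, 5 of 9 were called higher than in the control (31.8% of all tested genes). Prim1, the catalytic subunit of primase, had the largest change of all 46 genes in the shPkm2-labelled libraries. It was at 7.92 and 7.34 CPM in the control, 14.7 and 14.8 CPM in shPkm1 and 47.0 and 49.2 CPM in the shPkm2-labelled libraries, or 6.30-fold over the control (2.66 ± 0.12, adjusted p 4.7e-10). Its partner Prim2, the large primase subunit, rose by 1.16 in shPkm1 and 1.69 in the shPkm2-labelled libraries, and by 0.53 between them. Per transcript, the ratio of Prim1 to Prim2 TPM was 1.05 and 0.764 in the control, 0.805 and 0.734 in shPkm1, and 1.75 and 1.71 in the shPkm2-labelled libraries. The control and shPkm1 ratios overlapped, and both of the third group lay above them. Pola1, the catalytic subunit of polymerase alpha, was at 6.21 and 6.44 CPM in the control, 17.3 and 16.1 CPM in shPkm1 and 35.8 and 32.1 CPM in the shPkm2-labelled libraries. It rose by 1.40 ± 0.14 in shPkm1 (adjusted p 1.6e-06) and by 2.42 ± 0.13 in the shPkm2-labelled libraries (adjusted p 2.8e-09). The accessory subunit Pola2 changed by 0.25 in shPkm1 (adjusted p 0.053) and rose by 1.48 in the shPkm2-labelled libraries. The ratio of Pola1 to Pola2 TPM was 0.121 and 0.119 in the control, 0.282 and 0.250 in shPkm1, and 0.243 and 0.224 in the shPkm2-labelled libraries.

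For polymerase epsilon, the leading-strand enzyme, the catalytic Pole rose by 0.97 in shPkm1 and 1.97 in the shPkm2-labelled libraries, and its subunit Pole2 by 1.02 and 1.83. Of polymerase delta, the lagging-strand enzyme, Pold1, Pold2 and Pold3 are among the 46 genes and were not called in shPkm1; the small subunit Pold4, which is not among them, is given with the other genes of the fork. Pold1, its catalytic subunit, was at 16.9 and 23.8 CPM in the control, 24.1 and 26.6 CPM in shPkm1 and 47.0 and 42.2 CPM in the shPkm2-labelled libraries. The spread between the control libraries was wide, and the change in shPkm1 of 0.32 ± 0.15 (adjusted p 0.077) passed at 0.59 without control replicate 2. Pold2, an accessory subunit, was at 102 and 80.2 CPM in the control, 74.6 and 83.6 CPM in shPkm1 and 121 and 127 CPM in the shPkm2-labelled libraries. Control and shPkm1 overlapped, with a change of -0.20 ± 0.12 (adjusted p 0.16), or -0.36 with an adjusted p of 0.0030 without control replicate 2 and 0.20 (uncalled) in limma on log2(TPM + 1). In the shPkm2-labelled libraries it rose by 0.45 ± 0.12 (adjusted p 0.0044), the smallest of the 44 changes called. Pold3 changed by 0.21 in shPkm1, where it was not called, and rose by 1.44 in the shPkm2-labelled libraries. In shPkm1 the polymerase alpha catalytic subunit, both primase genes and both polymerase epsilon genes thus passed the test, and Pola2, Pold1, Pold2 and Pold3 did not. With library totals Pola2, Pold1 and Pold3 passed too, at 0.44, 0.50 and 0.40.

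The clamp and its loader were the largest role in which each gene, 6 of 6, was called higher in every comparison. The shares of all tested genes called higher were 31.8% in shPkm1, 33.9% in the shPkm2-labelled libraries and 25.7% between the hairpin groups. PCNA, the ring that ties polymerases to DNA, was at 48.3 and 44.6 CPM in the control, 84.4 and 78.8 CPM in shPkm1 and 191 and 209 CPM in the shPkm2-labelled libraries. The groups lay apart, with changes of 0.81 ± 0.10 in shPkm1 (adjusted p 1.7e-05) and 2.10 ± 0.10 in the shPkm2-labelled libraries (adjusted p 1.3e-09). The gene has 2 pseudogenes, on chromosomes 19 and X, that are not rows of the table, so its count may include their reads. Rfc1, the large loader subunit, was at 30.4 and 30.2 CPM in the control, 49.9 and 50.9 CPM in shPkm1 and 68.4 and 58.3 CPM in the shPkm2-labelled libraries. Most of its change was already present in shPkm1 (0.74 ± 0.11, beside 1.07 ± 0.11), and the difference between the hairpin groups, 0.33 ± 0.10 (adjusted p 0.017), lost its call without either shPkm1 library (0.31 and 0.34) or without replicate 1 of the shPkm2-labelled libraries (0.20). Rfc4, a small loader subunit, was at 6.53 and 6.44 CPM, 9.58 and 9.71 CPM and 22.3 and 27.9 CPM in the same order, and rose by 0.57 ± 0.16 and 1.95 ± 0.15 over the control. Rfc2, another small subunit, was at 33.5 and 36.3 CPM, 42.0 and 46.6 CPM and 64.8 and 69.4 CPM. It had the smallest changes of the role over the control, 0.35 ± 0.11 (0.27 with an adjusted p of 0.11 without shPkm1 replicate 2) and 0.94 ± 0.10. Rfc3 rose by 0.60 in shPkm1 and 1.60 in the shPkm2-labelled libraries, and Rfc5 by 0.83 and 1.81. Rfc2, Rfc4 and Rfc5 overlap opposite-strand genes in part.

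Genes that bind or join the nascent strands split in shPkm1. Lig1, the ligase that seals Okazaki fragments, was at 25.6 and 32.4 CPM in the control, 50.2 and 47.9 CPM in shPkm1 and 127 and 118 CPM in the shPkm2-labelled libraries. It was the 1 gene of the 5 called in shPkm1 (0.76 ± 0.12, adjusted p 1.1e-04), where 31.8% of all tested genes were called higher. In the shPkm2-labelled libraries Lig1 rose by 2.08 ± 0.12. Fen1, the nuclease that trims RNA-primed flaps, was at 22.7 and 29.0 CPM in the control, 26.7 and 29.2 CPM in shPkm1 and 71.8 and 66.8 CPM in the shPkm2-labelled libraries. Its control and shPkm1 libraries overlapped (0.11, adjusted p 0.47), although it passed at 0.30 without control replicate 2 and at 0.49 with limma on log2(TPM + 1). RPA is a trimer that coats single-stranded DNA. Its middle subunit Rpa2 was at 18.9 and 19.4 CPM in the control, 16.0 and 18.7 CPM in shPkm1 and 37.4 and 40.6 CPM in the shPkm2-labelled libraries. Its small subunit Rpa3 was at 8.81 and 10.0 CPM, 9.42 and 8.49 CPM and 16.5 and 18.4 CPM. In shPkm1 neither passed (-0.14, 95% interval -0.40 to 0.12, and -0.07, -0.39 to 0.25), and in the shPkm2-labelled libraries both rose, by 1.02 ± 0.11 and 0.89 ± 0.14. The large subunit Rpa1 changed by 0.08 in shPkm1, where it was not called with TMM scaling but passed at 0.47 in limma on log2(TPM + 1), and rose by 1.09 in the shPkm2-labelled libraries. Fen1 and Lig1 also share part of their span with genes on the other strand.

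The pair that copies methylation onto new DNA rose in every comparison with all libraries in the fit. Uhrf1, which recognizes half-methylated sites, was at 26.2 and 42.0 CPM in the control, 48.2 and 47.5 CPM in shPkm1 and 139 and 133 CPM in the shPkm2-labelled libraries. Of the 46 genes it had the widest gap between the control libraries on the log2 scale. The change in shPkm1 was 0.48 ± 0.16 (adjusted p 0.019), fell to 0.19 with an adjusted p of 0.15 without control replicate 1, and lost its call at 0.49 and 0.50 without either shPkm1 library. In the shPkm2-labelled libraries it was 1.99 ± 0.16 (adjusted p 1.6e-07). Dnmt1, the maintenance methyltransferase, was at 69.4 and 78.2 CPM in the control, 85.8 and 96.9 CPM in shPkm1 and 240.3 and 218 CPM in the shPkm2-labelled libraries. It rose by 0.31 ± 0.11 in shPkm1, a call lost at 0.22 without control replicate 1 and at 0.22 without shPkm1 replicate 2, and by 1.63 ± 0.11 in the shPkm2-labelled libraries (adjusted p 2.5e-08).

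Other genes of the fork and of nucleotide supply, 44 in a list chosen by function, were called higher for 28 and lower for 5 in shPkm1, 37 and 2 in the shPkm2-labelled libraries, and 39 and 2 between the hairpin groups, with medians of 0.52, 1.73 and 1.08. The shares of all tested genes called higher and lower were 31.8% and 31.4%, 33.9% and 34.2%, and 25.7% and 27.3% in the same order. Asf1b, a histone chaperone, rose by 1.56 and 2.18 over the control, and Dtl, a substrate receptor that marks Cdt1 for destruction at PCNA, by 1.38 and 2.30. Pclaf, a PCNA-binding protein, rose by 2.85 in the shPkm2-labelled libraries and Fbxo5, an inhibitor of the anaphase-promoting complex that helps geminin persist, by 2.95. Dna2, a flap nuclease, changed by 0.11 in shPkm1, where it was not called, and rose by 2.33 between the hairpin groups, as did Dscc1, of an alternative clamp loader, by 1.95. Among suppliers of nucleotides, Tk1 rose by 1.00 and 2.31 over the control, while Dut, which removes dUTP, rose by 1.39 between the hairpin groups. Some genes went the other way. Samhd1, which degrades nucleotides, was at 127 and 129 CPM in the control, 63.0 and 60.1 CPM in shPkm1 and 85.8 and 85.5 CPM in the shPkm2-labelled libraries, and fell by 1.06 and 0.58 on the log2 scale, the second with no call in limma on log2(TPM + 1) (-0.12). Pold4, the small polymerase delta subunit, was at 115 and 81.0 CPM, 134 and 131 CPM and 62.7 and 68.7 CPM, higher in shPkm1 (0.45, not called without control replicate 2 or either shPkm1 library) and lower in the shPkm2-labelled libraries (-0.57, not called with library totals, -0.24, or limma, -0.10). Rnaseh2c, a subunit of the enzyme that removes ribonucleotides from DNA, fell by 0.83 in shPkm1, and its change in the shPkm2-labelled libraries, -0.04, was not called and turned to 0.42 in limma. The catalytic Rnaseh2a rose by 1.07 in shPkm1 and was lower in the shPkm2-labelled libraries than in shPkm1 (-0.39, with no call under library totals, -0.26, without shPkm1 replicate 2, -0.31, or without replicate 1 of the shPkm2-labelled libraries, -0.34). Top1, the topoisomerase, fell by 0.43 in shPkm1. The value was smaller and not called with library totals (-0.23), limma (-0.02) and without control replicate 1 (-0.18), and the call was also lost without either shPkm1 library (-0.47 and -0.37).

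A pair of further lists serves for comparison. The 23 mitosis genes were called higher for 21, 23 and 23 in the 3 comparisons in the same order and lower for none, with medians of 0.86, 2.41 and 1.57, each above that of the 46 replication genes. Ncapg, a condensin subunit, rose by 3.27 and the spindle checkpoint kinase Ttk by 3.12 in the shPkm2-labelled libraries. The kinetochore genes Nuf2 and Cenpf rose by 1.91 and 1.87 in shPkm1, while the anaphase activators Cdc20 and Ube2c rose by 2.22 and 1.87 between the hairpin groups and changed by 0.07 and 0.07 in shPkm1, where they were not called with TMM scaling and all libraries. In limma on log2(TPM + 1) both were called there (0.46 and 0.46), and Cdc20 passed at 0.28 without control replicate 2, while without control replicate 1 both were below 0 (-0.11 and -0.031). All 23 mitosis genes were higher in control replicate 2 than in replicate 1, by a median of 0.32. For all tested genes this held for 47.6%, with a median of -0.015. Of 13 polymerases and helpers of repair, lesion bypass and mitochondrial copying, 6 were called higher and 5 lower in shPkm1, 7 and 3 in the shPkm2-labelled libraries, and 3 and 0 between the hairpin groups, with medians of 0.11, 0.30 and 0.07. Of all tested genes, 31.8% were called higher and 31.4% lower in shPkm1, 33.9% and 34.2% in the shPkm2-labelled libraries, and 25.7% and 27.3% between the hairpin groups. Polq, the polymerase of end joining by short homologies, rose by 1.53 and 2.90, and Polm by 1.06 and 1.06. Polb, of base excision repair, fell by 0.66 and 0.70, and Twnk, the mitochondrial helicase, by 0.57 and 0.51, both with no call in the shPkm2-labelled libraries in limma on log2(TPM + 1) (-0.25 and -0.04). Twnk also lost its call there with library totals (-0.18), and in shPkm1 with limma (-0.16). Mad2l2, a subunit of lesion-bypass polymerase zeta, rose by 0.86 between the hairpin groups. In shPkm1 it was called lower than in the control, with no call in limma on log2(TPM + 1) (-0.14). In the shPkm2-labelled libraries it was called higher than in the control, with no call in DESeq2 (0.30) or the 2-group fit (0.31). Without replicate 2 of the shPkm2-labelled libraries that change was 0.18.

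In the promoter search 18 of 50 windows of the replication genes (36.0%), belonging to 18 of 38 genes, held at least 1 E2F-type word, beside 744 of all 32851 RefSeq windows (2.26%). A word was in 8 of 30 windows of other genes of origin firing and the fork (26.7%) and 2 of 21 windows of the mitosis genes (9.52%). It was in 0 of 7 windows of nucleotide supply genes and 0 of 12 windows of the repair, bypass and mitochondrial polymerases. The 25 matches in the replication genes lay between 219 bases before and 40 after the start site, and 16 of them within 60 bases of it. The 30-base stretch around the Orc1 word, chr4:108579416-108579445 on the + strand, is shown because Orc1 had the widest difference between the hairpin groups.
Orc1: ttcggttagtgGCGCGAAAagttttctcct
In the shPkm2-labelled libraries, 17 of the 18 genes with a word were called higher (median 1.69), and 19 of the 20 without (median 1.36). The 8 genes with no window were all called higher too (median 1.91), beside 33.9% of all tested genes. Orc3, with a word 41 bases before its start, was the exception in the first set and Orc4 in the second. Of the word TTTGAA, known from promoters of mitosis genes and searched on both strands, a copy was in 18% of the replication windows, 17.9% of all windows and 76.2% of the mitosis windows. The CCAAT word was in 56.0%, 37.4% and 85.7% of windows. These matches are letters in a window and no evidence of binding.

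**Figure D4:**
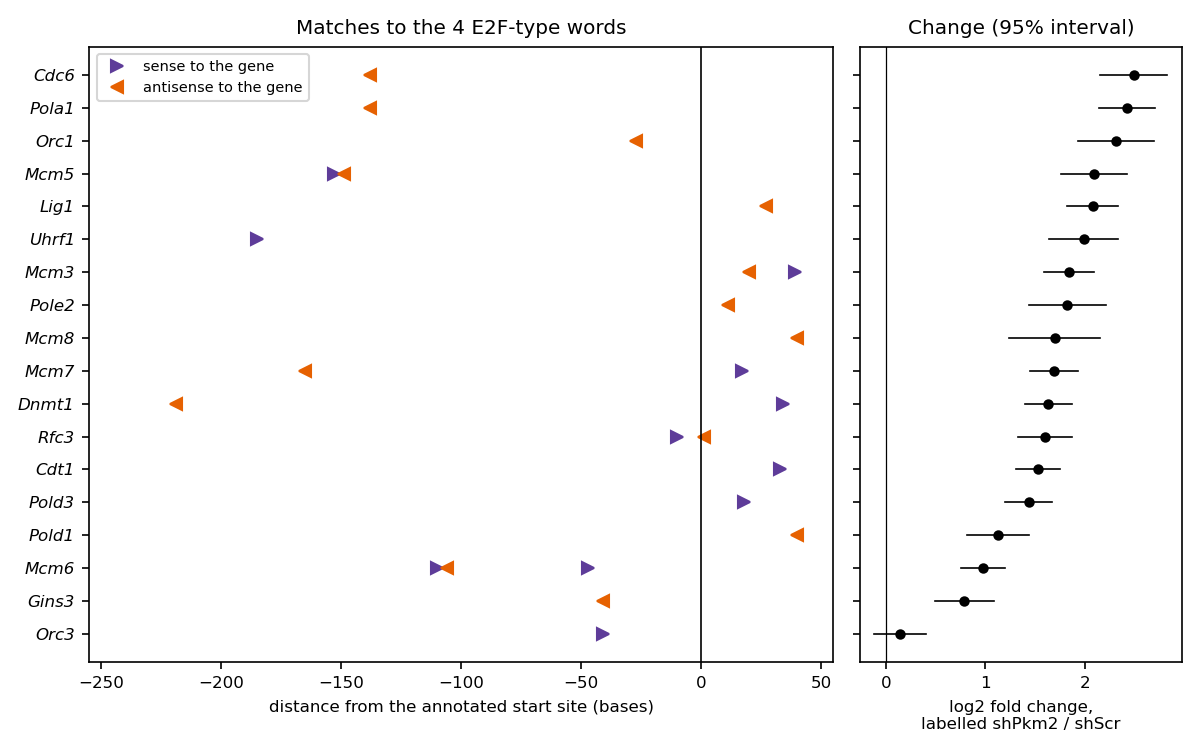
Left, distance in bases from the annotated start site of each of the 25 matches to the E2F-type words in 18 replication genes, with the triangle pointing right for the strand of the gene and left for the other strand. Right, the log2 fold change of the same gene in the shPkm2-labelled libraries against shScr with its 95% interval; Cdc6 is at the top and Orc3, whose interval crosses 0, at the bottom.

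Several replication genes start back to back with a gene on the other strand. By GENCODE M21 positions, 14 of the 46 have a protein-coding neighbour in the table whose start lies within 1000 bases on the opposite strand. These 14 neighbours were called higher for 7 and lower for 1 in the shPkm2-labelled libraries, beside 33.9% and 34.2% of all tested genes. Their median was 0.25, and that of the replication genes beside them 1.55. In shPkm1 5 were higher and 2 lower (31.8% and 31.4% of all tested genes; medians 0.19 and 0.41), and between the hairpin groups 2 were higher and 3 lower (25.7% and 27.3%; medians -0.01 and 1.08). Prkdc, a kinase of DNA end joining that starts 466 bases from Mcm4, changed most, to 20.3 and 19.7 CPM in shPkm1 and 17.4 and 19.4 CPM in the shPkm2-labelled libraries from 9.06 and 9.21 CPM in the control. It rose by 1.13 and 1.01, with a difference of -0.12 between the hairpin groups that was not called, where Mcm4 differed by 1.55. Vps35, 170 bases from Orc6 and overlapping it, rose by 0.94 in shPkm1 and 0.35 in the shPkm2-labelled libraries, the second with no call without control replicate 2 (0.23) or without replicate 1 of the shPkm2-labelled libraries (0.33). Abhd12, 659 bases from Gins1, was lower in shPkm1 (-0.59) and in the shPkm2-labelled libraries (-0.32). In limma on log2(TPM + 1) neither was called, and the values were -0.17 and 0.16. The second call was also lost with library totals (-0.0023), without control replicate 2 (-0.18) and without replicate 1 of the shPkm2-labelled libraries (-0.23). Rars2, 13 bases from Orc3, was not called in any comparison with TMM scaling (0.15, 0.13 and -0.01), but passed in shPkm1 and in the shPkm2-labelled libraries with library totals (0.34 and 0.46) and with limma on log2(TPM + 1) (0.51 and 0.57). Others rose in the shPkm2-labelled libraries by less than the gene beside them: Prpf38a by 0.50 beside Orc1, Slc25a40 by 0.60 beside Dbf4, Smyd4 by 0.47 beside Rpa1 and Trmt6 by 0.35 beside Mcm8. Slc25a40 lost its call without replicate 2 of the shPkm2-labelled libraries (0.51), and Trmt6 without replicate 1 (0.31) and in DESeq2 (0.34, adjusted p 0.067). In shPkm1 Trmt6 was called lower (-0.32, adjusted p 0.034), where Mcm8 rose by 0.82. That call was lost in DESeq2 (-0.32) and with library totals (-0.12). Mbd5, beside Orc4, rose by 0.42. Ap4m1 (beside Mcm7), Ufd1 (Cdc45), Pxmp2 (Pole), Umad1 (Rpa3) and Tmem258 (Fen1) did not pass there with TMM scaling, at 0.04, 0.04, -0.53, -0.29 and 0.15. Ap4m1, Ufd1 and Tmem258 passed with library totals (0.36, 0.37 and 0.48) and with limma on log2(TPM + 1) (0.42, 0.46 and 0.60). Umad1 passed at -0.56 without control replicate 2.

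**Figure D5:**
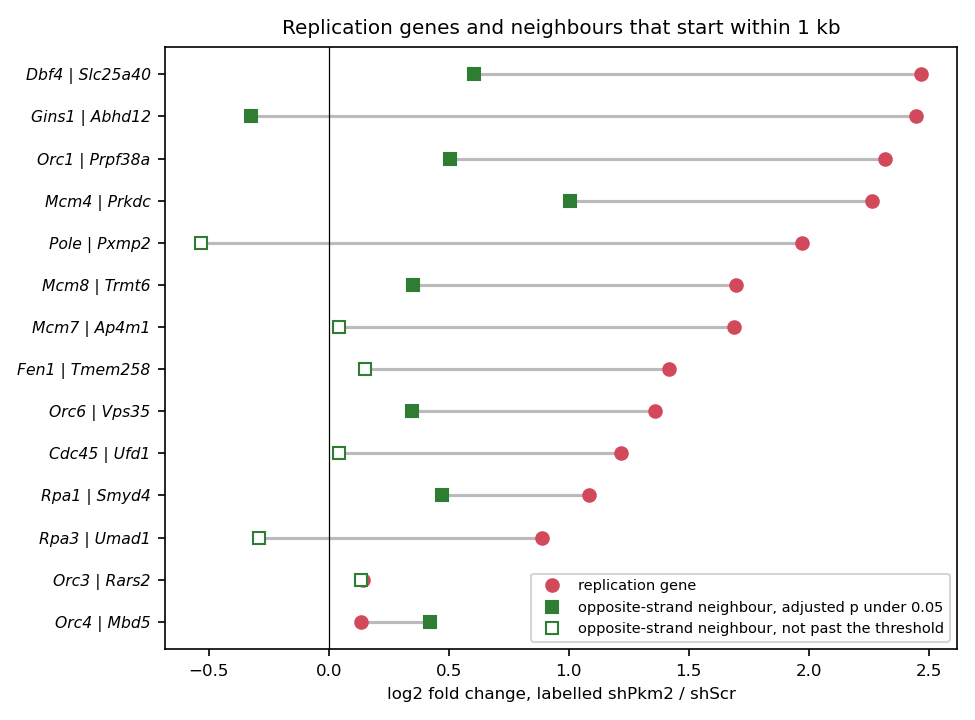
Log2 fold change in the shPkm2-labelled libraries against shScr for the 14 replication genes (red circles) and the protein-coding gene that starts within 1000 bases on the opposite strand (green squares, filled where the adjusted p was under 0.05), joined by a line. In 13 of the 14 pairs the square lies to the left of the circle, Orc4 and Mbd5 being the exception.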

How the data were processed

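The deposited table gives, per the file headers, an estimated count and a TPM value for each RefSeq transcript in each library. Per the submitters' processing notes the tools included HISAT, StringTie, Bowtie, RSEM and DESeq2, and the build was mm10; their roles, the strandedness and read filters are not given in the sources used here. The estimated counts deposited by the authors were summed over transcripts per gene and rounded. The TPM values deposited by the authors were summed likewise and used to compare genes. Symbols matched 17445 of 17558 genes.

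Tests used edgeR 4.0.16 under R 4.3.3, with filterByExpr (minimum count 10, total 15), TMM scaling, a quasi-likelihood F-test on 3 groups of 2 libraries, and Benjamini-Hochberg adjustment over 12643 genes (threshold 0.05, two-sided). Exact permutation of 2 against 2 libraries cannot go below p = 0.333. CPM are scaled by TMM, and intervals are 95%.

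Values in every library are given for the 2 largest and 2 smallest changes per role in the shPkm2-labelled libraries (all in roles of up to 4) and for genes whose direction differs between comparisons; of other lists, up to 2 higher and 2 lower called genes per comparison, of those that averaged 50 counts or more. Mcm2 and Mcm6 are given as well. A gene of the other lists that this rule names is not reported here. The members and lists were chosen with earlier results of these data known. Alternatives were other scalings and filters, DESeq2 1.42.0, limma 3.58.1 on log2(TPM + 1) and log2(TPM + 0.1), 2-group fits, a replicate block and leaving out each library.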

Additional observations from a re-analysis of the deposited data

How the results depend on the processing

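Of 2070 tests of single replication genes under the alternatives, 1960 kept their direction and side of the threshold, 46 gained a call, 16 lost one and 48 changed sign; of these, Gins4 in shPkm1 passed with its new sign, at 0.37 and 0.38 with limma on log2(TPM + 1) and log2(TPM + 0.1). Among other named genes Trmt6 in shPkm1 and Abhd12 in the shPkm2-labelled libraries lost a call and changed sign with limma, and Rnaseh2c in the shPkm2-labelled libraries passed with its new sign; the rest that changed sign were not called either way. With library totals the log2 changes that turned were, in shPkm1 Orc1 0.16, Gins4 0.19, Mcm10 0.19, Rpa2 0.051, Rpa3 0.12, Ufd1 0.0077, and in the shPkm2-labelled libraries Rnaseh2c 0.28, Top1 0.092, Umad1 0.038, and between the hairpin groups Polb 0.094, Prkdc 0.0051, Pxmp2 0.035, Rars2 0.12, Umad1 0.12. With limma (TPM + 1, then TPM + 0.1) the log2 changes that turned were, in shPkm1 Orc1 0.20 and 0.30, Cdt1 0.14 and 0.15, Gins4 0.37 and 0.38, Mcm10 0.33 and 0.39, Pold2 0.20 and 0.20, Rpa2 0.23 and 0.24, Rpa3 0.31 and 0.32, Prpf38a 0.12 and 0.13, Trmt6 0.068 and 0.074, Ufd1 0.17 and 0.18, Umad1 0.11 and 0.13, and in the shPkm2-labelled libraries Abhd12 0.16 and 0.16, Rnaseh2c 0.42 and 0.42, Top1 0.22 and 0.23, Umad1 0.15 and 0.18, and between the hairpin groups Polb 0.023 and 0.023, Rars2 0.052 and 0.055, Umad1 0.046 and 0.052. With the other filters and the 2-group fit the log2 changes that turned were, in shPkm1 Gins4 0.0074 and 0.0046 and 0.0029, Mcm10 0.0086 and 0.0062 and 0.0053, and between the hairpin groups Polm -0.0070 and -0.0075. With DESeq2 size factors, then DESeq2 the log2 changes that turned were, between the hairpin groups Polm -0.0030 and -0.0031. Ranges of the changes that turned when 1 library was left out were, in shPkm1 Orc1 -0.20 to 0.13, Orc3 -0.058 to 0.22, Mcm2 -0.013 to 0.078, Mcm6 -0.018 to 0.17, Gins4 -0.039 to 0.037, Mcm10 -0.19 to 0.21, Rpa1 -0.025 to 0.19, Rpa3 -0.16 to 0.023, Fen1 -0.056 to 0.30, Cdc20 -0.11 to 0.28, Dna2 -0.088 to 0.30, Ube2c -0.039 to 0.20, Umad1 -0.55 to 0.029, and in the shPkm2-labelled libraries Orc4 -0.015 to 0.30, Ap4m1 -0.096 to 0.20, Rnaseh2c -0.13 to 0.062, Tmem258 -0.0016 to 0.29, Top1 -0.45 to 0.0049, Ufd1 -0.055 to 0.15, Umad1 -0.56 to 0.021, and between the hairpin groups Orc3 -0.049 to 0.18, Orc4 -0.32 to 0.022, Orc6 -0.092 to 0.19, Polb -0.11 to 0.034, Polm -0.079 to 0.075, Pxmp2 -0.30 to 0.14, Rars2 -0.079 to 0.043, Slc25a40 -0.032 to 0.16, Twnk -0.036 to 0.16, Umad1 -0.085 to 0.062.

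The median change of the 46 genes in shPkm1 was 0.71 with library totals and 0.83 and 0.90 with limma. In the shPkm2-labelled libraries it was 1.98 with library totals and 1.97 and 2.09 with limma, and between the hairpin groups 1.29 with library totals. For the 44 replication genes outside the list the medians were 0.71, 0.83 and 0.92 in shPkm1 and 2.05, 1.89 and 2.19 in the shPkm2-labelled libraries with library totals and the limma settings, and 1.21 between the hairpin groups with library totals. Of these 44, 2 were called lower in shPkm1 under each of those 3 settings, 1 with library totals and 0 with both limma settings in the shPkm2-labelled libraries, and 1 between the hairpin groups with library totals. Those scalings shift all genes, by 0.19, 0.31 and 0.38 in shPkm1 and 0.33, 0.36 and 0.45 in the shPkm2-labelled libraries; no other cause was tested.

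Leaving out each library in turn gave 24 to 30 replication genes called higher and 0 to 1 lower in shPkm1, 44 to 46 higher and 0 lower in the shPkm2-labelled libraries, and 40 to 42 higher and 0 lower between the hairpin groups. The gene called lower was Cdt1 without control replicate 1 and Pold2 without control replicate 2. The median of the 46 genes ranged from 0.42 to 0.58, from 1.54 (without control replicate 1) to 1.83 (without control replicate 2), and from 1.09 to 1.17. For the 44 other genes it ranged from 0.43 to 0.74, from 1.55 to 2.00 and from 1.03 to 1.10, with 2 to 6, 2 to 4 and 1 to 2 genes called lower. Where this leaves a group with 1 library, that library is assumed to vary like the others. The replicate numbers do not pair the samples: deviations of libraries with the same number correlated at -0.03, 0.04 and 0.05, and the labels name no shared batch. With the replicate block, 27, 44 and 42 replication genes were called higher, and no call of a replication gene changed. With 2 libraries per group and members as low as 32 counts, a small change can be missed, and a miss does not show that a gene is unchanged.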

Other observations

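Transcript models of single replication genes were not compared between groups, since the estimated split between models of Cdc45, Dnmt1, Uhrf1, Mcm5 and Mcm8 differed between replicates of one group.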
